A study of Mus musculus with 18 samples.

Results

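Ribosome-bound RNA pulled down from astrocytes (IP) was compared with the total RNA of the same tissue (input) in mouse hippocampus that had received only the RiboTag AAV. The comparison holds 6 of the 18 samples of the series, namely AAV control group IP samples #1 to #3 and input samples #1 to #3, and an IP and an input sample of the same number came from the same homogenate. Genes were included when their FPKM (a count of fragments scaled to exon length and to the mapped reads of the library) was above 1 in all 6 samples, which left 9961 of the 55291 genes in the files. The lowest of the 6 values was 1.0001 FPKM for Tox3 and 1.0005 for Ascc3, just inside that minimum, and 0.9996 for Atm and 0.9991 for Ofd1, just outside.

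Male C57BL/6J mice, 6 weeks old, received an injection into the right CA3 region of AAVDJ-GfaABC1D-EGFP-Rpl10a, a virus that drives a GFP-tagged ribosomal protein from a promoter active in astrocytes. RNA of the AAV control group was collected 2 weeks later with no further injection, and each sample pooled the right hippocampi of 3 to 4 mice. The KA group received kainic acid, a glutamate receptor agonist, in the right dentate gyrus 2 weeks after the same virus and was collected 14 days after that. The PBS group received PBS after the virus. All groups therefore carried the virus, there was no hippocampus without it, and the GFP tag marks cells in which the promoter was active near the injection, whereas the input was the whole dissected hippocampus.

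Astrocytes are the glial cells that take up glutamate and potassium released by active neurons, hold the water balance around synapses and vessels, supply cholesterol carried on apolipoprotein E, and are coupled into networks by connexins. They hold the glycogen of the brain and make the serine from which neurons obtain D-serine. In translating ribosome affinity purification (TRAP), the tagged ribosomes are captured with an antibody to GFP. Enriched RNAs are those whose share on the captured ribosomes is above their share of the total RNA. An RNA made mostly by other cells is depleted from the IP relative to the input.

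The 6 libraries held 7991681 to 12821143 counted reads, within the range of 7991681 to 16032180 in the series. Homogenates #1 and #2 were sequenced together and #3 in a later run, and the libraries split in the same way. Across tested genes, IP samples #1 and #2 correlated at r = 0.9897 on the log2 CPM scale, against 0.929 to 0.934 with IP sample #3. Inputs gave 0.9929 against 0.948 to 0.954. Run and homogenate cannot be told apart here, so some values are also given without homogenate #3. In bulk samples of this kind, fewer cells of a type and less RNA per cell cannot be told apart, and p-values measure the spread between pools of hippocampi. The IP is ribosome-bound RNA and the input is total RNA, so cell type and ribosome binding cannot be told apart either. No IP came from tissue without the tag, so unspecific pull-down was not measured.

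IP and input differed widely. With edgeR's quasi-likelihood test, a gene was called when its Benjamini-Hochberg adjusted p was under 0.05 and its fold change was at least 2. Of the 9961 genes tested, 1321 (13.3%) were called higher in IP and 1305 (13.1%) were called lower, and the median log2 fold change was 0.01. The FPKM minimum removes genes that are close to absent from either IP or input, so a wider fit of the 15446 genes that pass edgeR's filterByExpr is cited where a cell type lost its markers to the minimum. A gene can enter that fit through its higher group alone, so its values there are descriptions, given without p-values. Calls of single genes as higher or lower in that fit are not cited. In that fit 2201 genes (14.2%) were called higher and 2128 (13.8%) lower. Without homogenate #1 the counts of the 9961 genes were 798 higher and 804 lower, and without homogenate #3 they were 1426 and 1392. The homogenates left without #1 or #2 came from different runs, and those left without #3 from the same run. Fold changes below are log2 values of IP over input from the fit of 9961 genes, ± the standard error, with 3 IP and 3 input samples, and FPKM values are listed in the order #1, #2 and #3.

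**Figure D1:**
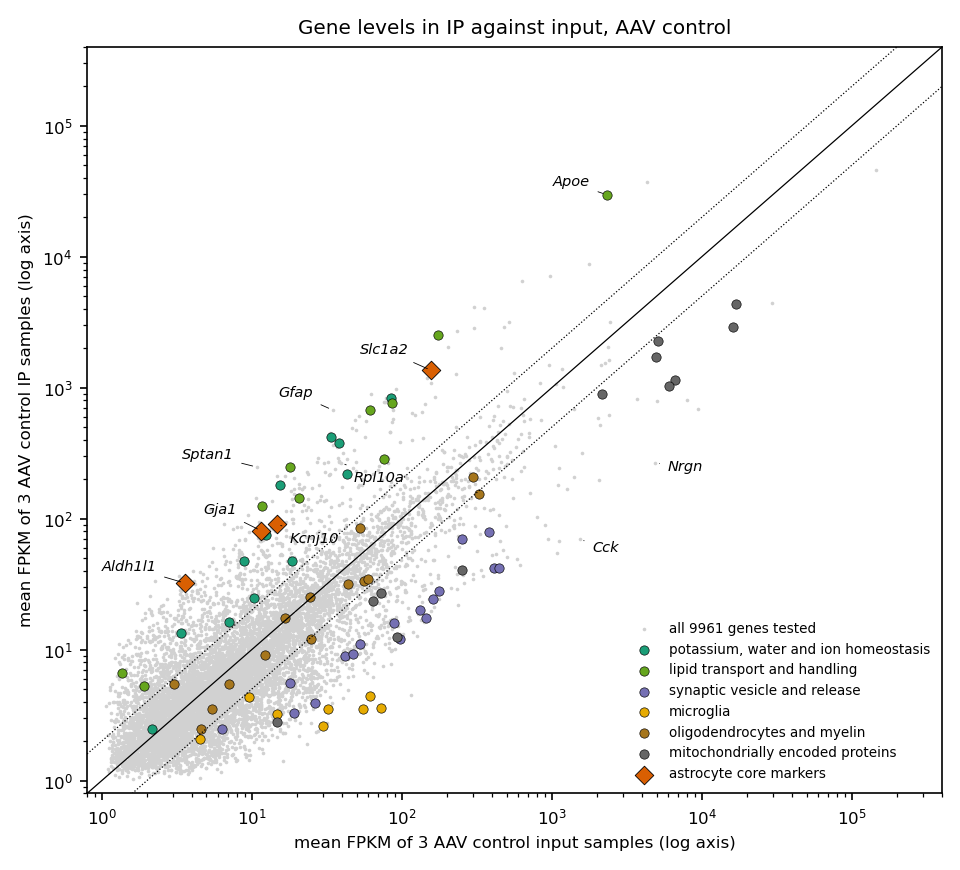
Mean FPKM of each of the 9961 tested genes in the 3 input samples (horizontal, log scale) against the 3 IP samples (vertical, log scale) of the AAV control group. All tested genes are in grey, with members of chosen gene lists in colour and the core astrocyte markers as diamonds. The solid diagonal marks equal values and the dotted lines a 2-fold difference. Of the genes drawn, 1321 were called higher in IP and 1305 lower, which the colours do not show.

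The 4 astrocyte markers Aldh1l1, Slc1a2, Gja1 and Kcnj10 were each higher in every IP sample than in any input sample. Aldh1l1, a folate enzyme used as a general astrocyte marker, lies at chr6:90486427-90600203 (mm10, GENCODE vM21) and stood at 35.4, 33.4 and 28.2 FPKM in IP and 3.38, 3.25 and 4.10 FPKM in input. Its log2 fold change was 3.31 ± 0.19 (adjusted p = 0.000102), a 9.91-fold difference. Slc1a2, the main glutamate transporter, lies at chr2:102658659-102790784 and stood at 1534, 1658 and 885 FPKM in IP and 168, 165 and 139 FPKM in input. The difference was 9.49-fold (log2 fold change 3.25 ± 0.31, adjusted p = 0.000221), and IP sample #3 was the lowest of the 3 while still above all inputs. Gja1, which encodes connexin 43, lies at chr10:56377330-56402513 and stood at 91.2, 88.9 and 62.7 FPKM in IP and 11.999, 12.5 and 10.3 FPKM in input (log2 fold change 2.95 ± 0.19, adjusted p = 0.000105). Kcnj10, the inward rectifier potassium channel Kir4.1, lies at chr1:172341210-172374085 and stood at 107, 108 and 58.96 FPKM in IP and 16.6, 16.3 and 11.3 FPKM in input (log2 fold change 2.78 ± 0.26, adjusted p = 0.000199). For all 4 markers the ratio was smallest in homogenate #3, where the summed FPKM of the markers was 6.29 times the input, against 8.85 and 9.56 times in #1 and #2.

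Rpl10a, the ribosomal protein that carries the tag, stood at 244, 239 and 319.8 FPKM in IP and 40.8, 34.7 and 42.5 FPKM in input (log2 fold change 2.93 ± 0.25, adjusted p = 0.000162). The transgene encodes Rpl10a, so reads of the native gene and of the virus cannot be told apart. The other ribosomal protein genes are given with the RNA classes.

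**Figure D2:**
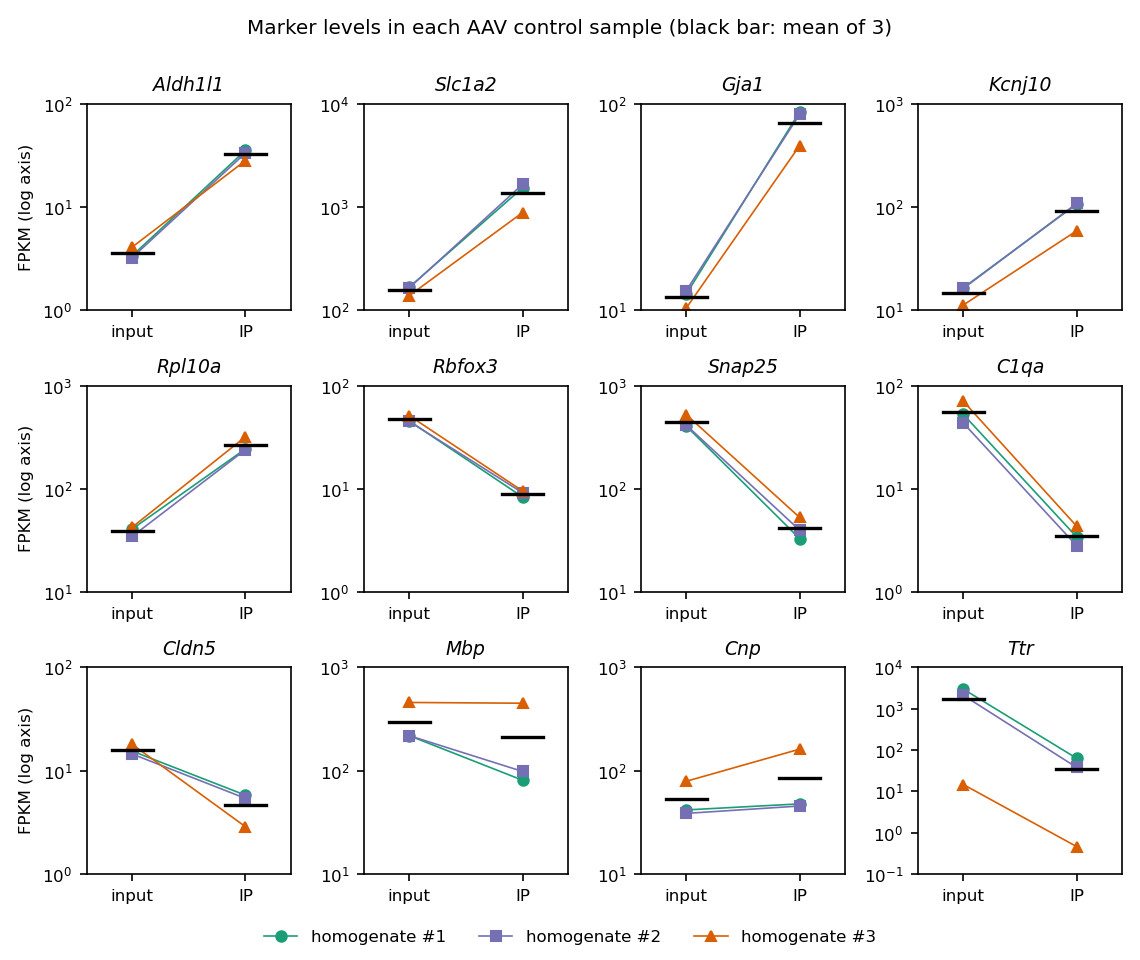
FPKM on a log axis of the core astrocyte markers and of markers of other cell types in each AAV control IP and input sample, with 1 point per sample. The astrocyte markers sit higher in all 3 IP samples, neuronal and microglial markers sit lower, and homogenate #3 stands apart from #1 and #2 for the myelin genes Mbp and Cnp and for Ttr.

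The genes of glutamate and GABA handling were enriched as groups. All 6 genes of glutamate uptake and glutamine synthesis were called higher, with a median of 3.16. Glul, glutamine synthetase, stood at 716, 731 and 871 FPKM in IP and 58.1, 57.3 and 118 FPKM in input (log2 fold change 3.45 ± 0.41, adjusted p = 0.000545). Slc1a3, the second astrocytic glutamate transporter, gave 2.89 ± 0.24, and Slc25a18, a mitochondrial glutamate carrier, gave 3.20 ± 0.30. The 5 genes of GABA uptake and breakdown were also all called higher, at a smaller median of 1.79. Within them Slc6a11, the GABA transporter GAT3 of astrocytes, gave 2.31 ± 0.19. Maob and Abat, which break down amines and GABA, gave 3.05 ± 0.24 and 1.79 ± 0.21.

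Of 13 genes of potassium, water and ion homeostasis, all were tested and 12 were called higher. Atp1b2, a beta subunit of the sodium pump, gave 2.49 ± 0.28. Fxyd1, a small regulator of the pump, gave 3.80 ± 0.36, from 33.7 ± 8.53 FPKM in input to 419 ± 115 FPKM in IP (mean ± SD). Mlc1, a membrane protein of astrocyte endfeet, gave 3.46 ± 0.29, and the water channel Aqp4 stood at 204, 174 and 170.3 FPKM in IP and 15.3, 13.4 and 17.5 FPKM in input (log2 fold change 3.71 ± 0.23). The chloride channel gene Clcn2 was the exception (log2 fold change 0.38 ± 0.42, adjusted p = 0.518). Among the connexins, Gjb6 (connexin 30) gave 2.91 ± 0.18, close to Gja1. Gjb2 (connexin 26), which meningeal cells also express, did not pass the test at 2.15, 1.39 and 2.21 FPKM in IP and 1.46, 1.48 and 1.85 FPKM in input (log2 fold change 0.41 ± 0.30, adjusted p = 0.323). Genes named as exceptions to their list were picked after their values had been seen.

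Lipid carriers had the highest summed FPKM in IP of the astrocyte lists. All 10 genes of lipid transport and handling were called higher, with a median of 3.42, and their summed FPKM was 35883, 33053 and 34556 in IP and 2218, 1827 and 4316 in input. Apoe, which carries cholesterol to neurons, stood at 32024, 29752 and 27434 FPKM in IP and 1871, 1525 and 3608 FPKM in input (log2 fold change 3.79 ± 0.47, adjusted p = 0.000714). Clu, clusterin, stood at 1599, 1309 and 4638 FPKM in IP and 99.5, 83.5 and 341 FPKM in input (log2 fold change 4.01 ± 0.84, adjusted p = 0.00758), and its call was lost without homogenate #1. Fabp7, a fatty acid carrier of glial progenitors and astrocytes, gave 3.59 ± 0.28, and Plpp3, a lipid phosphatase, gave 3.28 ± 0.40.

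The genes of cholesterol synthesis, the pathway that turns acetyl-CoA into sterols, were also higher in IP. Of 17 genes 15 were tested and 13 were called higher, at a median of 1.63, and none was called lower. Hmgcs1, which makes HMG-CoA, stood at 127, 137 and 49.3 FPKM in IP and 37.3, 40.4 and 21.2 FPKM in input (log2 fold change 1.80 ± 0.38, adjusted p = 0.00761). Mvd, which makes isopentenyl diphosphate, stood at 41.5, 30.4 and 44.1 FPKM in IP and 8.62, 6.70 and 9.88 FPKM in input (log2 fold change 2.36 ± 0.26, adjusted p = 0.000431). Fdft1, squalene synthase, gave 1.64 ± 0.34, and Sc5d, a late sterol desaturase, gave 1.61 ± 0.17. The calls of Hmgcs1 and Fdft1 were lost without homogenate #1, where the median of the list was 1.58. Fdft1 overlaps Ctsb on the other strand. Srebf2, the factor that activates the pathway, was not called, at 0.61 ± 0.17, under the 2-fold threshold.

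Promoter sequences were read to see what the members of this pathway share apart from their enrichment. RefSeq promoter windows of 250 bases before and 50 after the start were found for 11 of the 17 genes. All 11 held the letters CCAAT on either strand, the motif named after those letters, which can also overlap with TTGGC read on the other strand. The share was 41.1% of the 27025 genes in the promoter table, 43.6% of the tested genes with a window, 47.6% of the genes called higher in IP and 23.1% of the synaptic vesicle genes. All 11 also held GGGCGG on either strand, which 71.3% of the tested genes with a window held. The motif was picked after the shares of 15 motifs had been seen, and a match is a description of these windows, not a binding site. The windows of 3 enzymes are shown on their coding strand (GRCm38.p6), with CCAAT, or its reverse complement, in capitals.
Hmgcs1, 4 matches, chr13:119690101-119690400, plus strand: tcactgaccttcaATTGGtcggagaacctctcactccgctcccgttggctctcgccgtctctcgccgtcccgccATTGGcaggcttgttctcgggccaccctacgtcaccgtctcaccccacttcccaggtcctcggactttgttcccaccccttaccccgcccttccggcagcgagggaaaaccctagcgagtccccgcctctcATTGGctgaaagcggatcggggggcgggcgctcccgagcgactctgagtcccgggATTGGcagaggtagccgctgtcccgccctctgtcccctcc
Mvd, 2 matches, chr8:122443373-122443672, minus strand: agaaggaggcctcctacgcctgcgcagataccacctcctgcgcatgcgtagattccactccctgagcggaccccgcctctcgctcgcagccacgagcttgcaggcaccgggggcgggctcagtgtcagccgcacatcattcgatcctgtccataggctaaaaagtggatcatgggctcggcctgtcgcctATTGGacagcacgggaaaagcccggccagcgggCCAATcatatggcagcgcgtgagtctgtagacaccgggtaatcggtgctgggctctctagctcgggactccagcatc
Msmo1, 3 matches, chr8:64733529-64733828, minus strand: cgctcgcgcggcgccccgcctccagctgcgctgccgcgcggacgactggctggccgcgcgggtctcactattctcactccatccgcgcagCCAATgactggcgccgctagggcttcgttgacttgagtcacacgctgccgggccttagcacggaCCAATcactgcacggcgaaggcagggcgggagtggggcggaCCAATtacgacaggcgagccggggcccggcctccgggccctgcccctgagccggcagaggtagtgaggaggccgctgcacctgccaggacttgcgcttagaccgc
Msmo1, a sterol methyl oxidase shown here for its window, stood at 33.1, 30.5 and 40.4 FPKM in IP and 7.54, 7.36 and 10.2 FPKM in input (log2 fold change 2.20 ± 0.26, adjusted p = 0.000533).

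Energy metabolism separated into genes with and without enrichment. Of 10 tested genes of glycogen, glucose and lactate, 9 were called higher at a median of 2.18. Aldoc, the aldolase of astrocytes, stood at 3226, 2512 and 6747 FPKM in IP and 212, 163 and 537 FPKM in input (log2 fold change 3.93 ± 0.69, adjusted p = 0.00341), so that IP and input of homogenate #3 were both above those of #1 and #2. Ppp1r3c, which targets a phosphatase to glycogen, gave 2.86 ± 0.25. Of the lactate dehydrogenase subunits, Ldhb gave 2.29 ± 0.42, a call lost without homogenate #1, and Ldha stood at 89.8, 68.7 and 99.2 FPKM in IP and 72.9, 61.8 and 126 FPKM in input and did not pass the test (log2 fold change 0.13 ± 0.35, adjusted p = 0.802).

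All 9 tested genes of the 10 of serine, glycine and folate metabolism were called higher, at a median of 2.13. The core marker Aldh1l1 (3.31) is among these members, so the list is not separate from the core markers. The 3 steps of serine synthesis gave 3.10 ± 0.40 for Phgdh, 2.13 ± 0.21 for Psat1 and 2.62 ± 0.19 for Psph. Gcsh, a subunit of the glycine cleavage system, gave 1.62 ± 0.17. Phgdh, the first enzyme of the route, stood at 169, 125 and 208 FPKM in IP and 18.3, 15.3 and 31.2 FPKM in input, with no overlap of the groups.

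Of 23 transcription factors of astrocytes, 18 were tested and 14 were called higher. Id3, an inhibitor of basic helix-loop-helix factors, stood at 1091, 1028 and 589 FPKM in IP and 67.1, 68.9 and 50.4 FPKM in input (log2 fold change 3.9998 ± 0.27, adjusted p = 0.000111), and its relatives Id2 and Id4 gave 2.58 ± 0.20 and 3.03 ± 0.49. Hopx, a homeodomain protein of radial glia and astrocytes, stood at 1035, 1074 and 390.2 FPKM in IP and 92.2, 89.5 and 53.2 FPKM in input (log2 fold change 3.54 ± 0.40, adjusted p = 0.000445). It overlaps the antisense gene Hopxos, whose reads cannot be told apart from its own unless the counting used strand. Hes5, a target of Notch, gave 2.30 ± 0.21. Nfib, Nfix, Hes1 and Zbtb20 did not pass the test, at 0.07 ± 0.37, 0.06 ± 0.27, 0.61 ± 0.31 and 0.41 ± 0.27.

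The receptor list moved in both directions. Of 12 tested receptors and calcium signalling genes, 8 were called higher and 2 lower. The orphan receptor Gpr37l1 gave 3.51 ± 0.39, the neurotensin receptor Ntsr2 gave 3.55 ± 0.48 and the sphingosine phosphate receptor S1pr1 gave 3.17 ± 0.23. Grm5, a metabotropic glutamate receptor that neurons also express, stood at 6.16, 6.43 and 3.71 FPKM in IP and 29.3, 29.2 and 14.8 FPKM in input (log2 fold change -2.02 ± 0.29, adjusted p = 0.0013). Gabbr2, a subunit of the GABA-B receptor, stood at 7.11, 7.16 and 5.41 FPKM in IP and 29.9, 29.1 and 23.02 FPKM in input (log2 fold change -1.91 ± 0.16, adjusted p = 0.000149). The other subunit, Gabbr1, gave -0.07 ± 0.22 and did not pass the test. Both genes called lower had all 3 IP values under all 3 inputs.

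Of 16 synaptogenic, matrix and phagocytic genes 8 were above the FPKM minimum and 7 of these were called higher, or 5 without homogenate #1. Sparcl1 (hevin), which promotes synapse formation, stood at 1348, 1262 and 1413 FPKM in IP and 161, 157 and 193 FPKM in input (log2 fold change 3.13 ± 0.25, adjusted p = 0.000148). Its relative Sparc gave 2.62 ± 0.60, a call lost without homogenate #1. The proteoglycans Bcan and Ncan, parts of the matrix around synapses, gave 3.42 ± 0.23 and 2.09 ± 0.33. Gpc4, a glypican, gave -0.52 ± 0.20 and did not pass the test. Gfap, the intermediate filament of astrocytes, stood at 622, 566 and 843 FPKM in IP and 29.2, 27.3 and 47.3 FPKM in input (log2 fold change 4.44 ± 0.39, adjusted p = 0.000178), a 21.7-fold difference. S100b gave 3.54 ± 0.23 and Vim gave 3.20 ± 0.19, while Synm did not pass the test at 0.75 ± 0.28.

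Genes often induced in reactive astrocytes were mostly under the FPKM minimum without kainic acid. Of 11 genes 2 were tested and 0 were called by edgeR, with 0 at an unadjusted p under 0.05, and DESeq2 called 1 higher. Serpina3n, a protease inhibitor, stood at 10.1, 8.01 and 39.3 FPKM in IP and 4.61, 3.91 and 12.1 FPKM in input (log2 fold change 1.65 ± 0.76, adjusted p = 0.128). With homogenate as a block its log2 fold change was 1.497 ± 0.17 (adjusted p = 0.000115) and without homogenate #3 its log2 fold change was 1.25 ± 0.19 (adjusted p = 4.1e-05), so that it was called in both. Timp1, an inhibitor of matrix proteases, stood at 2.31, 1.88 and 10.5 FPKM in IP and 0.282, 0.590 and 0.179 FPKM in input (log2 fold change 4.03 ± 0.90 in the wider fit). Cxcl10, an interferon-induced chemokine, stood at 1.82, 2.46 and 37.9 FPKM in IP and 0.278, 0.0465 and 1.76 FPKM in input (log2 fold change 4.41 ± 1.46 in the wider fit).

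**Figure D3:**
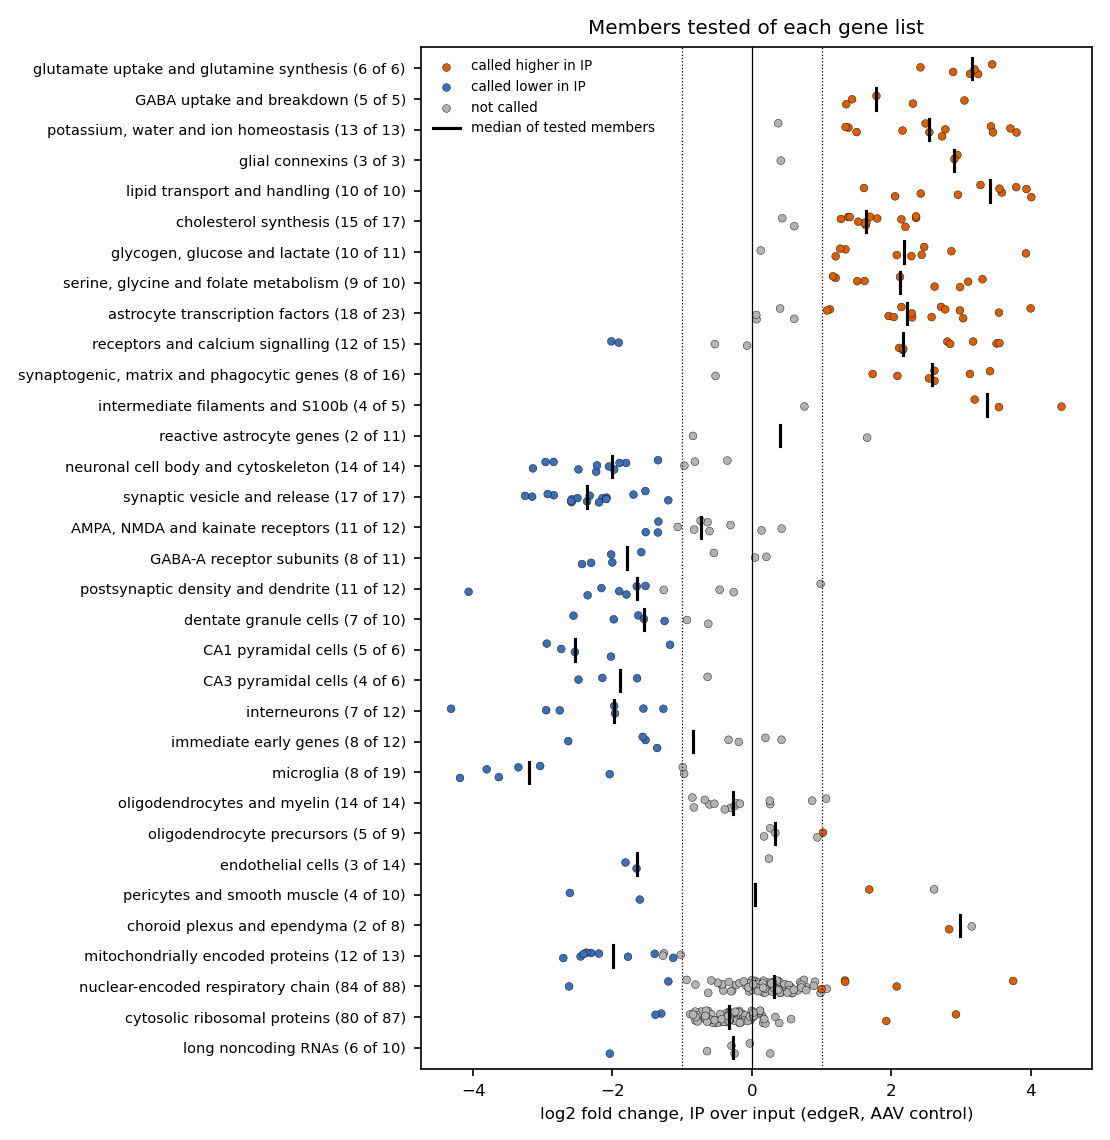
Log2 fold change of IP over input for every tested member of each gene list, with 1 point per gene coloured by its call and a bar at the list median. The list of core markers and the lists drawn up after the values had been seen are left out. Core markers that belong to another list are drawn there. Medians of the astrocyte lists lie above 0, those of the neuronal and microglial lists lie below it, and the myelin, nuclear respiratory chain and ribosomal protein lists are centred near 0.

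Among called genes whose groups did not overlap and whose mean was at least 10 FPKM where they were higher, the highest fold changes were not all those of familiar astrocyte markers. Sptan1, a spectrin of the membrane skeleton, stood at 188, 235 and 321 FPKM in IP and 11.96, 11.2 and 9.32 FPKM in input (log2 fold change 4.70 ± 0.33, adjusted p = 0.000114). Ppp1r9a, neurabin, an actin-binding scaffold known from neurons, stood at 117, 157 and 82.1 FPKM in IP and 6.68, 5.76 and 3.40 FPKM in input (log2 fold change 4.64 ± 0.34, adjusted p = 0.000123). They ranked with Gfap, Clu, Id3 and Aldoc, and with Myoc (myocilin, 4.01 ± 0.35), Lcat (a cholesterol-esterifying enzyme, 3.94 ± 0.56) and Aldh1a1 (a retinal dehydrogenase, 3.92 ± 0.36). Myoc overlaps the gene Myocos on the other strand.

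The RNAs with the highest mean FPKM in IP were Gm23935 (annotated as a miRNA), Cst3, Apoe, Cpe, Mt1, Dbi, mt-Rnr2, mt-Cytb, Aldoc and Gstm1. Cst3, a secreted protease inhibitor, stood at 33148, 35746 and 42106 FPKM in IP and 3525, 3137 and 6361 FPKM in input (log2 fold change 3.23 ± 0.44, adjusted p = 0.00106). Dbi, which binds acyl-CoA, gave 3.52 ± 0.496, Cpe, a peptide-processing enzyme, gave 2.47 ± 0.31, Gstm1, a glutathione transferase, gave 3.67 ± 0.56, and Mt1, a metallothionein, gave 3.02 ± 0.76. The calls of Cpe and Mt1 were lost without homogenate #1. Gm23935 stood at 43852, 82515 and 12097 FPKM in IP and 171452, 223992 and 40749 FPKM in input and did not pass the test (log2 fold change -1.52 ± 0.75, adjusted p = 0.153). With homogenate as a block its log2 fold change was -1.57 ± 0.17 (adjusted p = 7.91e-05), which was called lower.

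The genes of synaptic vesicles and transmitter release were lower in IP without exception. All 17 members were called lower, with a median of -2.36 and a range of -3.25 to -1.20, and their summed FPKM was 380.1, 396 and 409 in IP and 2346, 2306 and 2891 in input. Snap25, a SNARE protein of release sites, stood at 33.02, 39.8 and 52.9 FPKM in IP and 405, 414 and 523 FPKM in input (log2 fold change -3.25 ± 0.32, adjusted p = 0.000255). The vesicle SNARE Vamp2 gave -2.15 ± 0.20, the vesicle GTPase Rab3a gave -3.15 ± 0.40 and the complexin gene Cplx2 gave -1.70 ± 0.18.

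Of 14 genes of the neuronal cell body and cytoskeleton, 11 were called lower and none higher. Uchl1, a neuronal ubiquitin hydrolase, stood at 36.9, 41.5 and 45.6 FPKM in IP and 381, 347 and 486 FPKM in input (log2 fold change -3.14 ± 0.26, adjusted p = 0.000148). Gap43, of growing axons, gave -2.49 ± 0.16, the neurofilament gene Nefl gave -1.80 ± 0.16, and Rbfox3, which encodes NeuN, gave -2.23 ± 0.19. Mapt, the microtubule protein tau, stood at 37.4, 39.95 and 43.2 FPKM in IP and 57.1, 53.3 and 61.1 FPKM in input and did not pass the test (log2 fold change -0.35 ± 0.19, adjusted p = 0.193), although each IP value was below each input value. The adhesion gene Cntn3 was under the FPKM minimum and gave -0.37 in the wider fit, where it did not pass the test.

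Receptor subunits were called lower in part. Of 11 tested AMPA, NMDA and kainate receptor subunits, 3 were called lower (Gria1, Grin2a and Grin2b), and without homogenate #3 the number was 5. Gria1 stood at 30.5, 36.6 and 29.5 FPKM in IP and 112, 112 and 84.7 FPKM in input (log2 fold change -1.52 ± 0.18, adjusted p = 0.00052), and Grin2b gave -1.35 ± 0.18. Gria2, the AMPA receptor subunit that blocks calcium entry, stood at 34.9, 49.03 and 59.6 FPKM in IP and 53.5, 55.8 and 38.3 FPKM in input, with overlapping groups (log2 fold change 0.14 ± 0.28, adjusted p = 0.73). Grik5 gave -0.74 ± 0.24 and Grik4 gave -0.64 ± 0.23, and neither was called. Among 8 tested GABA-A receptor subunits, 5 were called lower. Gabra5, an extrasynaptic subunit of hippocampal neurons, gave -2.44 ± 0.32. Gabra4 and Gabrb1 gave -0.55 ± 0.16 and 0.21 ± 0.15 and were not called. Gabrg1, below the minimum, had a log2 fold change of 2.22 ± 0.29 in the wider fit.

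Postsynaptic genes differed among themselves. Of 11 tested members 7 were called lower. Nrgn, neurogranin, a calmodulin-binding protein of dendrites, stood at 311, 307 and 183 FPKM in IP and 5237, 5224 and 4272 FPKM in input (log2 fold change -4.06 ± 0.28, adjusted p = 0.000111), and Camk2a, a kinase of the postsynaptic density, gave -2.16 ± 0.18. Ddn, dendrin, whose RNA is carried into dendrites, stood at 114, 122 and 37.6 FPKM in IP and 297, 297 and 128 FPKM in input and did not pass the test (log2 fold change -1.26 ± 0.45, adjusted p = 0.061), but was called lower with homogenate as a block (log2 fold change -1.33 ± 0.13, adjusted p = 5.06e-05). The scaffold Shank1 stood at 36.4, 43.2 and 90.96 FPKM in IP and 63.3, 64.8 and 135 FPKM in input, with overlapping groups (log2 fold change -0.46 ± 0.504, adjusted p = 0.512). Its relative Shank2 was the member with the highest fold change (log2 fold change 0.99 ± 0.16, adjusted p = 0.00234).

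Genes that mark the classes of hippocampal neurons were called lower or not called, and none was called higher. Dentate granule cell genes were called lower in 5 of 7 tested, with C1ql2 at -2.56 ± 0.27, Calb1 (calbindin) at -1.98 ± 0.20, Rasl10a at -1.63 ± 0.29 and Stxbp6 at -0.93 ± 0.16, which was not called. CA1 pyramidal cell genes were called lower in 5 of 5, with Spink8 at -2.94 ± 0.57, Mpped1 at -2.02 ± 0.15, Pou3f1 at -2.54 ± 0.18 and Wfs1 at -1.17 ± 0.17. CA3 pyramidal cell genes, those of the injected region, were called lower in 3 of 4, with Bok at -2.15 ± 0.17, Cpne4 at -2.49 ± 0.20 and Spock1 at -1.65 ± 0.15. Differences between the 3 regions were not tested.

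Interneuron genes were called lower in all 7 members tested of 12. Cck, cholecystokinin, stood at 64.6, 80.1 and 64.4 FPKM in IP and 1546, 1565 and 1506 FPKM in input (log2 fold change -4.32 ± 0.21, adjusted p = 0.000102). The peptide somatostatin, Sst, gave -2.76 ± 0.21, and parvalbumin, Pvalb, gave -2.95 ± 0.18. Neuropeptide Y, Npy, stood at 43.3, 62.1 and 123 FPKM in IP and 248, 243 and 510.4 FPKM in input (log2 fold change -1.96 ± 0.52, adjusted p = 0.0204), and its call was lost when homogenate #1 or #2 was left out. Of 8 tested immediate early genes, which neuronal firing induces, 4 were called lower. Egr1 gave -2.64 ± 0.23, Arc gave -1.53 ± 0.23 and Junb gave -1.36 ± 0.15, whereas Jun gave -0.19 ± 0.19 and was not called.

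Microglial genes had the lowest median of the cell type lists, at -3.19. Of 19 members 8 were above 1 FPKM in all 6 samples, and 6 of these were called lower. C1qb, a chain of complement C1q, stood at 2.78, 3.56 and 4.52 FPKM in IP and 55.01, 37.8 and 126 FPKM in input (log2 fold change -4.19 ± 0.56, adjusted p = 0.00093). C1qa gave -3.80 ± 0.32 and the lysosomal protease Ctss gave -3.63 ± 0.498. Tyrobp, a signalling adaptor of microglia, gave -3.04 ± 0.75, a call lost without homogenate #1. The summed FPKM of the list was 29.5, 25.8 and 46.6 in IP and 252, 206 and 502 in input. In the wider fit Tmem119 gave -2.74 ± 0.41. Cd68 and Ptprc gave -2.20 and -0.74 there and were not called, and Ccl3 was too low to be fitted.

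Endothelial genes were close to the FPKM minimum, with 3 of 14 tested. Cldn5, a tight junction protein of brain vessels, stood at 5.79, 5.39 and 2.87 FPKM in IP and 15.5, 14.5 and 17.96 FPKM in input (log2 fold change -1.65 ± 0.27, adjusted p = 0.00224), and Ly6c1 gave -1.81 ± 0.21. Slco1a4, a transporter of the blood-brain barrier, stood at 1.31, 1.42 and 1.29 FPKM in IP and 1.56, 1.06 and 1.16 FPKM in input and did not pass the test (log2 fold change 0.24 ± 0.21, adjusted p = 0.4). Of the members under the minimum, Esam gave -1.43 in the wider fit. Apold1 and Nostrin gave -0.74 and 0.14 there and were not called, and Icam2 was too low to be fitted. Of the meningeal fibroblast genes none was above the minimum. In the wider fit Dcn, a proteoglycan, gave -3.48, Lum gave -4.12 and Col1a2 gave -1.63, and Col1a1 at -1.47 was not called.

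Mural cell genes did not move together. Vtn, vitronectin, which pericytes express, stood at 3.45, 2.73 and 2.58 FPKM in IP and 15.9, 13.98 and 28.4 FPKM in input (log2 fold change -2.61 ± 0.35, adjusted p = 0.000943), and Rgs5 gave -1.61 ± 0.30, a call lost without homogenate #1. Pdgfrb, the receptor that marks pericytes, was called higher instead, at 4.39, 4.24 and 3.41 FPKM in IP and 1.33, 1.55 and 1.26 FPKM in input (log2 fold change 1.68 ± 0.18, adjusted p = 0.000317). Acta2, smooth muscle actin, stood at 2.90, 2.95 and 41.2 FPKM in IP and 2.34, 3.29 and 3.47 FPKM in input, so that IP sample #3 alone was high (log2 fold change 2.61 ± 1.09, adjusted p = 0.0967). Without homogenate #3 its log2 fold change was 0.20 ± 0.24 (adjusted p = 0.488). The hemoglobin genes Hbb-bt and Hbb-bs, expressed by red blood cells, were among the lowest fold changes of all, at -4.51 ± 0.21 and -4.19 ± 0.25.

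Oligodendrocyte and myelin genes depended on the homogenate. edgeR called 0 of the 14 tested members, with 0 at an unadjusted p under 0.05, DESeq2 called 0 higher and 0 lower, and the median was -0.28. Mbp, myelin basic protein, stood at 80.8, 98.3 and 449 FPKM in IP and 218, 218 and 457 FPKM in input. In homogenates #1 and #2 the IP was below the input, and in #3 they were nearly equal. Mog, a myelin surface protein, stood at 13.04, 18.4 and 63.9 FPKM in IP and 47.3, 36.2 and 47.8 FPKM in input. The summed FPKM of the list was 287, 380.5 and 1223 in IP and 916, 867 and 1026 in input, which is a log2 ratio of -1.67, -1.19 and 0.25 in homogenates #1, #2 and #3. The ratio of #3 was thus the only one above 0, and the IP sum of #3 was the highest of the 6 libraries. Without homogenate #3, 10 of 14 members were called lower, with log2 fold changes of -1.13 ± 0.10 for Mbp and -1.13 ± 0.09 for Mobp. Cnp, an enzyme of myelin that overlaps Dnajc7, stood at 47.7, 45.5 and 161 FPKM in IP and 41.7, 38.6 and 78.9 FPKM in input (log2 fold change 0.87 ± 0.61, adjusted p = 0.304), and the factor Sox10 gave -0.17 ± 0.37.

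Oligodendrocyte precursor genes were near equality or slightly higher in IP. Olig1, a transcription factor of the lineage, stood at 71.8, 72.5 and 65.1 FPKM in IP and 40.4, 37.2 and 36.99 FPKM in input (log2 fold change 1.02 ± 0.14, adjusted p = 0.00112) and was the only one of 5 tested members called. Its call was lost without homogenate #1, without #2 and with libraries scaled to total counts. Olig2, C1ql1 and Lhfpl3 gave 0.17 ± 0.18, 0.94 ± 0.20 and 0.26 ± 0.19.

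Choroid plexus and ependymal genes also separated homogenate #3 from the others. Ttr, transthyretin, which choroid plexus makes, stood at 62.9, 37.8 and 0.461 FPKM in IP and 2965, 2102 and 14.6 FPKM in input, so the 2 earlier inputs held far more of it than the third. In the wider fit its log2 fold change was -5.48 ± 1.86, with IP below input in every homogenate. Tmem212, an ependymal gene, stood at 14.01, 17.1 and 177 FPKM in IP and 6.47, 5.85 and 14.7 FPKM in input, with its highest value in IP sample #3 (log2 fold change 3.15 ± 1.09, adjusted p = 0.0548). It was called higher with homogenate as a block (log2 fold change 2.57 ± 0.46, adjusted p = 0.0015) and without homogenate #3 (log2 fold change 1.49 ± 0.22, adjusted p = 2.68e-05). Ccdc153, of motile cilia, stood at 9.75, 13.9 and 57.2 FPKM in IP and 4.37, 3.81 and 5.04 FPKM in input (log2 fold change 2.83 ± 0.72, adjusted p = 0.0175), a call lost without input sample #1 or input sample #2. Without homogenate #3 its log2 fold change was 1.69 ± 0.19 (adjusted p = 1.89e-06). Folr1, of choroid plexus, was not called in the wider fit at -0.30. The part of dissection, cell makeup or sequencing run in these values was not tested.

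**Figure D4:**
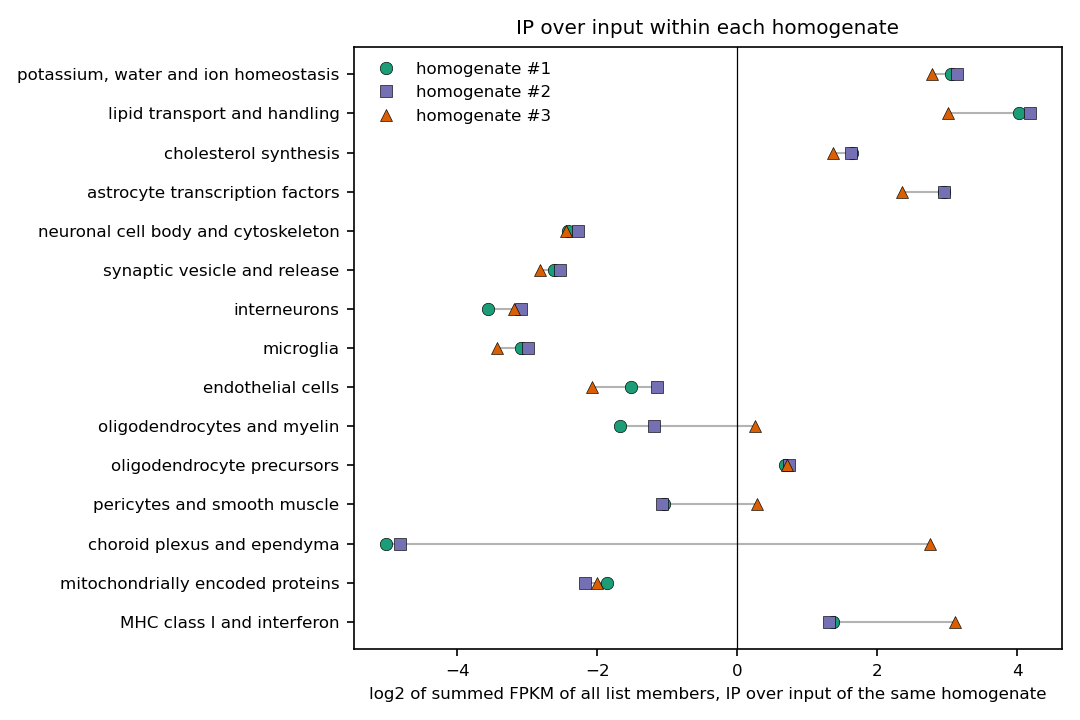
Log2 ratio of summed FPKM, IP over input, for chosen gene lists in homogenates #1, #2 and #3 of the AAV control group. Other lists are not drawn, and the MHC class I and interferon list was drawn up after the values had been seen. The 4 astrocyte lists drawn stay above 0 and the neuronal lists drawn below 0 in all 3 homogenates. The myelin list lies at -1.67 and -1.19 in #1 and #2 and at 0.25 in #3.

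Mitochondrially encoded RNAs, which are translated inside mitochondria and not by the tagged ribosomes, were lower in IP. They made up 2.2 to 2.66% of counted reads in the IP samples and 10.9 to 12.5% in the inputs. Of 12 tested protein-coding members 9 were called lower, at a median of -1.99, with the number at 12 with homogenate as a block and 5 without homogenate #2. mt-Nd1 and mt-Nd2, subunits of complex I, gave -2.31 ± 0.28 and -2.37 ± 0.24. mt-Cytb stood at 4136, 2847 and 6172 FPKM in IP and 13667, 14717 and 22158 FPKM in input (log2 fold change -1.78 ± 0.43, adjusted p = 0.0147), and its call and that of the ribosomal RNA mt-Rnr2 (-2.57 ± 0.46) were lost without homogenate #1 or #2. For mt-Co1 the log2 fold change was -1.02 ± 0.54 (adjusted p = 0.179), and with the block the log2 fold change was -1.02 ± 0.21 (adjusted p = 0.00367).

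The nuclear genes of the same respiratory complexes, which cytosolic ribosomes translate, were mostly not called. Of 84 tested members 5 were called higher and 2 lower, at a median of 0.32. The counts called higher ranged from 3 without homogenate #1 to 14 without input sample #3, with 9 without homogenate #3. The called genes, named after their values had been seen, were Cox6b2 at 3.75 ± 0.28, Cox4i2 at 2.08 ± 0.28, Ndufc2 at 1.34 ± 0.28, Sdhc at 1.34 ± 0.15 and Uqcrfs1 at 1.0001 ± 0.18, whose call was lost with the block at 0.99 ± 0.13. Cox6b2, a subunit isoform of complex IV, stood at 22.7, 21.99 and 31.9 FPKM in IP and 2.03, 2.08 and 2.22 FPKM in input, with no overlap of the groups. Cox8a, Cox6a1, Cox4i1 and Uqcr11, the members with the highest FPKM, gave -0.08 ± 0.34, -0.41 ± 0.33, 0.38 ± 0.20 and 0.78 ± 0.43 and were not called. Cox6a2, an isoform first known from muscle that overlaps Itgad, was called lower at 1.74, 1.999 and 3.21 FPKM in IP and 13.1, 11.4 and 23.8 FPKM in input (log2 fold change -2.62 ± 0.45, adjusted p = 0.00299). Atp5md, a small subunit of ATP synthase, gave -1.20 ± 0.37, a call lost without homogenate #1 or #2.

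Of 80 tested cytosolic ribosomal protein genes 2 were called higher, Rpl10a and Rps27l (1.93 ± 0.15), and 2 lower, Rpl22l1 (-1.30 ± 0.31) and Rps12 (-1.38 ± 0.17). The number called lower was 4 without homogenate #3 and 1 without homogenate #1. The median was -0.33. Rplp1, Rpl41, Rpl36 and Rps15 gave -0.60 ± 0.23, -0.32 ± 0.22, 0.34 ± 0.34 and 0.12 ± 0.31. Reads of ribosomal protein genes can be shared with processed pseudogenes, so single members are uncertain.

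Long noncoding RNAs of the list were mostly not called, with 1 of 6 lower, or 2 without homogenate #3. Malat1, a nuclear RNA, stood at 457, 841 and 1743 FPKM in IP and 1103, 1309 and 1152 FPKM in input, with the groups overlapping (log2 fold change -0.03 ± 0.51, adjusted p = 0.97). Without homogenate #3 its log2 fold change was -0.75 ± 0.19 (adjusted p = 0.00318), under the 2-fold threshold. Meg3 gave -0.64 ± 0.33 and Snhg11 gave 0.26 ± 0.43, and Peg13, an imprinted neuronal RNA, was called lower at 4.09, 4.36 and 2.59 FPKM in IP and 17.6, 16.9 and 15.4 FPKM in input (log2 fold change -2.04 ± 0.19, adjusted p = 0.000195). Over all tested genes by annotated class, 1207 of 8980 protein-coding genes were called higher and 1228 lower, against 18 higher and 10 lower of 107 long intergenic RNAs and 19 and 9 of 118 antisense genes.

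The other group without kainic acid was fitted for the same genes, with PBS and AAV control libraries from different sequencing runs. A test of the difference between the PBS and the AAV control IP over input ratio called 0 of 9961 genes (0%) with edgeR, with 427 at an unadjusted p under 0.05. DESeq2 called 5, and 31 were called without AAV control homogenate #3. The core markers gave own log2 fold changes in PBS of 3.02 ± 0.23 for Aldh1l1, 2.99 ± 0.49 for Slc1a2, 2.72 ± 0.25 for Gja1 and 2.51 ± 0.23 for Kcnj10. Their differences from AAV control ran from -0.29 ± 0.30 for Aldh1l1 to -0.24 ± 0.30 for Gja1. A p that misses the threshold does not show that the groups are the same.

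The enrichment differed between the KA and AAV control groups for many genes. The KA group also had a second injection and was collected later after the virus. These differences cannot be told apart from kainic acid here. The IP over input difference was called higher in KA than in AAV control for 486 of 9961 genes (4.88%) and lower for 395 (3.97%). The number of genes called ranged from 465 without KA sample #2 and 492 without AAV control homogenate #1 to 1234 without AAV control homogenate #3. Both comparisons use the same AAV control libraries, so their values stand side by side without being counted together. The enrichment was smaller after KA for Slc1a2, at 1.39 ± 0.20 (difference -1.87 ± 0.34, adjusted p = 0.00394), for Gja1, at 1.20 ± 0.15 (difference -1.76 ± 0.23, adjusted p = 0.00072) and for Aldh1l1, at 2.05 ± 0.14 (difference -1.27 ± 0.22, adjusted p = 0.00316). Kcnj10 was not called, at 2.31 ± 0.15 (difference -0.48 ± 0.28, adjusted p = 0.31). Aldh1l1 stood at 25.4, 25.1 and 17.4 FPKM in KA IP samples and at 7.28, 6.51 and 5.69 FPKM in KA inputs, so all 3 inputs lay above and all 3 IP samples below those of the AAV control group.

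Within the lists, 9 of 15 tested cholesterol synthesis genes, 8 of 18 transcription factors, 6 of 10 lipid genes and 5 of 6 glutamate uptake genes had a lower IP over input difference after KA. For the cholesterol list the median went side by side at 1.63 in AAV control, 1.22 in PBS and 0.41 in KA. The reactive astrocyte list, with 2 tested members, went the other way, with medians of 0.40, -0.64 and 3.34 and 1 member called higher after KA. Of the synaptic vesicle genes, 13 of 17 had a higher difference, with medians of -2.36, -2.09 and -0.93. For the myelin list 3 of 14 had a higher difference, with medians of -0.28, -0.60 and 1.43.

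**Figure D5:**
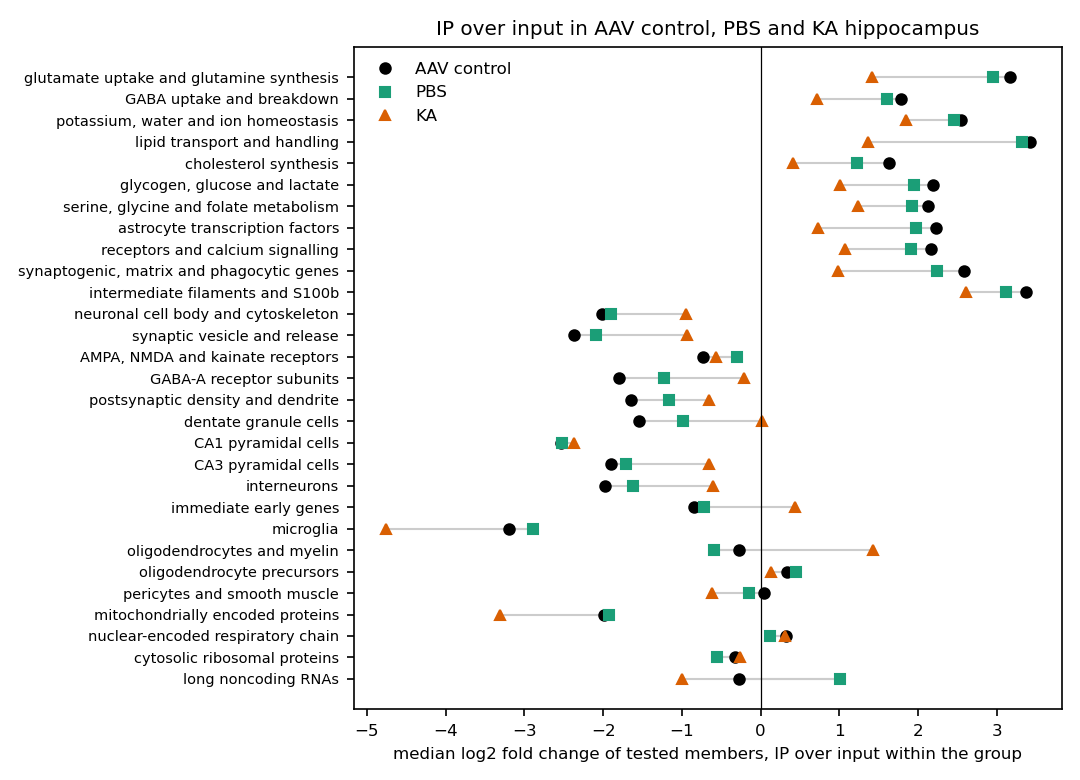
Median log2 fold change of IP over input for each gene list in the AAV control, PBS and KA groups, over the genes tested in the AAV control group. Lists with fewer than 4 tested members and the list of core markers are left out. For each of the 11 astrocyte lists drawn the KA median is the lowest of the 3 groups and above 0, and for the vesicle list the medians are -2.36 in AAV control, -2.09 in PBS and -0.93 in KA.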

How the data were processed

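RNA was measured in the IP and input samples of 3 AAV control homogenates, and NEBNext Ultra II libraries were sequenced on an Illumina NovaSeq. The authors aligned reads to mm10 with STAR, and the submitters' processing notes name featureCounts and edgeR without versions. The authors deposited whole-number counts per gene and FPKM values normalised to exon length and mapped reads, for each sample. The depth was 7991681 to 12821143 counts a library. Whether counting used strand is not given in the sources used here, and 79 of the 174 named genes overlap another annotated gene.

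Genes above 1 FPKM in all 6 libraries were tested on the counts with edgeR 4.0.16 in R 4.3.3 (TMM, quasi-likelihood, library kind as the term), with Benjamini-Hochberg adjustment over all genes tested and a call at adjusted p under 0.05 and a 2-fold change. Standard errors are the fold change over the root of F. Differences from the PBS and KA groups were tested as interaction contrasts over 12 libraries. The scripts were tested on simulated data. Symbols were matched to GENCODE vM21 (96.4%). No columns of the authors' own comparisons were used.

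The members and lists were chosen with earlier results of these data known. Lists can hold core markers and can share members, so their counts are not separate results. Named were the 4 core markers and Rpl10a, the 4 members of each list with the highest mean FPKM, list members called against the direction of their list, the 10 highest and 10 lowest fold changes among called genes with non-overlapping groups and a mean of at least 10 FPKM, the 10 highest means in IP, 5 genes per direction of each interaction contrast, and the 20 markers used by the study. Some genes that these rules name are not reported here. The remaining genes in the text were picked with their values in view.

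IP and input samples of a number share a homogenate, so they are paired by design. Their deviations from the group means correlated at 0.45, 0.68 and 0.72. Samples of different numbers within a run gave 0.62 (IP #2 with input #1) and 0.39 (IP #1 with input #2). Samples of different numbers from different runs gave -0.75 to -0.48. The correlations therefore cannot separate pairing by homogenate from the split between sequencing runs. The fit with this pairing as a replicate block was an alternative, as were no FPKM minimum, filterByExpr, DESeq2 (1.42.0), DESeq2 size factors, limma-voom (3.58.1), total-count scaling and leaving out each sample or homogenate. No 2 libraries were the same within sampling noise.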

Additional observations from a re-analysis of the deposited data

Results flagged for a closer look

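The ratio of IP to input differed between the KA and AAV control groups by the test of the difference itself, in an edgeR interaction contrast over 12 libraries, for 486 genes in the higher direction and 395 in the lower. Among the core markers the log2 difference, KA minus AAV control, was -1.27 for Aldh1l1, -1.87 for Slc1a2 and -1.76 for Gja1. Genes with the smallest p in the higher direction were Junb (2.26) and Bdnf (2.83), both induced by neuronal activity, Fam131a (2.26) and the sulfotransferase Sult4a1 (2.09). In AAV control these 4 were called lower in IP. Those in the lower direction were Sst (-2.81), Ppp1r1b (-2.74), Thrsp (-2.43), the retinol enzyme Dhrs3 (-2.51) and the Notch target Hes5 (-3.04). Of these Ppp1r1b, Thrsp, Dhrs3 and Hes5 were called higher in AAV control IP, at 1.88 ± 0.16, 3.27 ± 0.19, 1.97 ± 0.19 and 2.30 ± 0.21, and Sst was called lower. Groups of 3 samples are too small for a test of single outlying samples.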

How the results depend on the processing

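With the homogenate as a replicate block, 1374 genes were called higher in IP and 1364 lower, and the block changed no call of a named gene other than those given beside the results. DESeq2, DESeq2 size factors and limma-voom gave 1286 to 1367 higher and 1287 to 1318 lower. More genes were tested and called without the FPKM minimum (2619 and 2346), with filterByExpr (2201 and 2128), with filterByExpr and the block (2481 and 2422) and with filterByExpr on homogenates #1 and #2 only (2425 and 2519). The last 2 and total-count scaling were chosen after seeing the data. Leaving out samples or homogenates gave 798 to 1426 higher and 804 to 1402 lower, with the lowest counts without homogenate #1. Total-count scaling moved the median of all genes by -0.16 and gave 1100 and 1580. Of 117 named genes called, 116 kept their call under it, 102 without homogenate #1 and 112 without #2, and all 117 under the other fits that used all 6 libraries. The PBS difference gave 1 gene with the block, 5 with DESeq2 and 0 to 31 when a homogenate was left out. The KA difference gave 465 to 1234, with 465 without KA sample #2, 492 without AAV control homogenate #1 and 1240 with the block.

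Signs turned for genes that were not called. With total counts Ldha was -0.02, Gria2 -0.05 and Rps15 -0.03. With filterByExpr on homogenates #1 and #2 Gabbr1 was 0.09, Gria2 -0.22, Jun 0.002, Cox8a 0.12 and Snhg11 -0.48. Leave-out ranges were -0.07 to 0.57 for Ldha, -0.16 to 0.11 for Gabbr1, -0.23 to 0.37 for Gria2, -1.09 to 0.07 for Shank1, -1.68 to 0.22 for Mbp, -0.13 to 1.35 for Cnp, -0.31 to 0.31 for Cox8a, -0.12 to 0.49 for Rps15, -0.79 to 0.34 for Malat1, -0.49 to 0.57 for Snhg11, -1.40 to 0.16 for Mog and -0.76 to 0.11 for Sox10. Apart from the number of genes or samples in a fit, the cause was not tested.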

Other observations

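The lists in this section were drawn up after the values had been seen and carry no test of their own. Genes of the membrane skeleton and of actin scaffolds were among those higher in IP. Of 21 spectrin and nonmuscle myosin genes 10 were tested and 9 were called higher in IP. Sptbn1, a beta spectrin, stood at 176, 151 and 102 FPKM in IP and 12.9, 11.5 and 7.72 FPKM in input (log2 fold change 3.89 ± 0.28, adjusted p = 0.000123). Its relatives Sptb and Sptbn4 gave 3.33 ± 0.29 and 1.13 ± 0.17. The myosin genes Myo6, Myh10, Myh14 and Myo5a gave 2.53 ± 0.40, 1.84 ± 0.21, 1.68 ± 0.35 and 1.30 ± 0.21. Of 10 tested actin-binding scaffolds 9 were called higher. Dbn1, drebrin, known from dendritic spines, stood at 128, 181 and 196 FPKM in IP and 23.4, 21.8 and 19.8 FPKM in input (log2 fold change 3.12 ± 0.25, adjusted p = 0.000146), with no overlap of the groups. Mprip and Limch1, which bind actomyosin, gave 3.53 ± 0.27 and 3.62 ± 0.32. Ppp1r9b, the relative of neurabin, stood at 72.01, 155 and 52.3 FPKM in IP and 61.6, 59.2 and 27.1 FPKM in input and did not pass the test (log2 fold change 1.06 ± 0.43, adjusted p = 0.0867), but was called with the block (log2 fold change 1.01 ± 0.20, adjusted p = 0.00254).

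Metal-binding and glutathione genes were called higher in 8 of 11 and lower in 1, and without homogenate #1 in 5 and 0. The metallothioneins Mt2 and Mt3 gave 3.45 ± 0.44 and 2.75 ± 0.54, and the glutathione transferases Gstm5 and Mgst1 gave 3.39 ± 0.35 and 3.59 ± 0.19. Mgst3 stood at 31.4, 28.8 and 40.8 FPKM in IP and 90.5, 88.2 and 188 FPKM in input and was called lower (log2 fold change -1.72 ± 0.39, adjusted p = 0.0103), a call lost without homogenate #1. Genes of calmodulins and calcium-binding proteins were called lower in 9 of 10, a list that shares Nrgn with the postsynaptic list. Calm2, a calmodulin gene, stood at 649, 687 and 719 FPKM in IP and 9498, 9312 and 9501 FPKM in input (log2 fold change -3.63 ± 0.26, adjusted p = 0.000123), whereas Calm3, which encodes the same protein, gave -0.64 ± 0.23 and was not called. The calcium sensor Hpca gave -3.90 ± 0.55. All 4 hemoglobin genes in the files were called lower.

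Genes of MHC class I and interferon response were higher in IP sample #3 than in any other library. Their summed FPKM was 367, 323 and 4583 in IP and 142, 129.9 and 532 in input. B2m, the light chain of MHC class I, stood at 183, 153 and 2910.4 FPKM in IP and 66.5, 63.2 and 340.3 FPKM in input, with IP above input in every homogenate, and did not pass the test without pairing (log2 fold change 2.99 ± 1.35, adjusted p = 0.122). With homogenate as a block it was called higher (log2 fold change 2.11 ± 0.35, adjusted p = 0.000964). Of the 7 tested genes 3 were called higher without pairing and 7 with the block, which uses all 6 libraries. The unpaired count was 6 without homogenate #3 and 0 without homogenate #1, and the part of the sequencing run was not tested.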
